A study of Mus musculus with 20 samples.

Results

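Macrophages of brown adipose tissue (BAT), which makes heat from fuel, were followed through 32 genes in 20 mRNA libraries. The genes are markers of macrophages and of the myeloid line they belong to, chosen by name, and all 32 matched exactly 1 of the 55471 gene IDs of the count tables. They were grouped by role into 13 lineage and adaptor genes, 6 immune recognition genes, 10 receptors and products of resident macrophages, and 3 genes of lipid-associated macrophages. The expression filter passed 29 of them, among 15233 genes in all. Marco, Trem2 and Spp1 did not pass.

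The mice carried an adipose-specific CEBPB KO or were CEBPB WT, and had 4 h of cold stress or stayed at RT (room temperature). The 4 groups were KO_cold, KO_RT, WT_cold and WT_RT, with 5 libraries each. CEBPB is the transcription factor C/EBP beta. The labels name neither the promoter that drives the deletion, nor strain, age or sex, and nothing in them says whether replicates are different animals, so p-values measure the spread between these libraries, which may be technical. The label places the deletion in adipose cells, while the RNA comes from the whole tissue.

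Tissue macrophages clear dying cells and debris, sample their surroundings through scavenger and pattern receptors, and make the complement protein C1q. Their survival depends on the receptor CSF1R and its ligands CSF1 and IL-34. In brown fat they lie among the adipocytes, vessels and sympathetic nerve fibres, and mouse studies have tied them to lipid turnover, the removal of cell debris and the local level of noradrenaline. In RNA from whole tissue, fewer macrophages and less of a transcript per macrophage cannot be told apart.

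Each library held between 27.07 and 55.18 M counts on the strand used. Cebpb, the targeted gene, had 1.92 ± 0.277 CPM in KO_cold and 0.564 ± 0.253 in KO_RT, against 143 ± 22.4 in WT_cold and 105 ± 19.9 in WT_RT (CPM, counts relative to the TMM-scaled library size, mean ± SD, n = 5 each), so the libraries fit their genotype labels. Adipocyte markers summed to between 18257 and 28927 CPM in every library, which fits the tissue label. On the first principal component of all genes (53.9% of the variance), WT_cold replicate 5 (26.6) and WT_RT replicate 4 (-23.4) lay closer to the other temperature than the rest of their groups. Skeletal muscle markers summed to 4.09 to 15.9 CPM in KO_cold and 34.1 to 607 in KO_RT, and to 2.58 to 36.3 in WT_cold and 5.24 to 1424 in WT_RT.

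The promoters of the genes that moved most are shown first. A promoter was listed for 22 of the 32 genes in RefSeq (GRCm38.p6), and for 3 of the 4 that passed the test for cold in both genotypes, Mertk, Cd163 and Cx3cr1, while Lyve1 is named only. The 250 bases before each RefSeq start are given 5′ to 3′ on the gene's strand, because all 3 genes changed within 4 h. They lie at chr2:128698665-128698914 (+) for Mertk, chr6:124304401-124304650 (+) for Cd163 and chr9:120068297-120068546 (−) for Cx3cr1, whose RefSeq start lies 1583 bases inside the GENCODE gene. Capitals mark the only motif match.
Mertk: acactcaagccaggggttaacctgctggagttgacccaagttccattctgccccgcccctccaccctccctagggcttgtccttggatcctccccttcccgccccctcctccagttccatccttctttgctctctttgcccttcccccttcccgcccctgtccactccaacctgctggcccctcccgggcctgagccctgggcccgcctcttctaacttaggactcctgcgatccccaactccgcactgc
Cd163: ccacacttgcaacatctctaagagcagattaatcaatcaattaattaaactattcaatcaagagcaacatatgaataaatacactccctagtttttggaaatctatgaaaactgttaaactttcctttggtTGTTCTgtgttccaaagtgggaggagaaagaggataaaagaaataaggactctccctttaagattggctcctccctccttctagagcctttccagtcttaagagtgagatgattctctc
Cx3cr1: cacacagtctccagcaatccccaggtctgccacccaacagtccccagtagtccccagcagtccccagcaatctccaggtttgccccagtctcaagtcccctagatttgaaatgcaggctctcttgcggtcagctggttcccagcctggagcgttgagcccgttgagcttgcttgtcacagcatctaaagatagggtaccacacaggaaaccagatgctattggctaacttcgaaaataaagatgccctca
The motifs were searched on both strands. TGACG is the short form of the cAMP response element, and AGAACA the core unit bound by the glucocorticoid receptor. TTGCNNAA is a form of the C/EBP site, GAGGAA the core of the myeloid factor PU.1, and TGCTGA the core of MAF sites. These are present in 17.9%, 16%, 9.57%, 23.4% and 16.1% of the 32526 RefSeq promoters over the same length. The match in Cd163 is AGAACA on the opposite strand, starting 119 bases before the start. It is a match of letters and not a measured binding site.

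Levels between genes were compared as CPM per kilobase of exon, as the mean of the 4 group means. Lyz2, the lysozyme of myeloid cells, was the most abundant at 32.7 CPM per kb, without any reads that also mapped to its near copy Lyz1. Retnla, a secreted product of alternatively activated macrophages, followed at 15.8, then the C1q chains C1qa, C1qb and C1qc at 11.9, 10.1 and 5.76. The signalling adaptor Tyrobp stood at 3.86, the haemoglobin scavenger Cd163 at 3.61, the phagocytic receptor Mertk at 3.34 and the hyaluronan receptor Lyve1 at 3.26. The mannose receptor Mrc1 had 2.67 CPM per kb and the macrophage antigen Adgre1 (F4/80) 1.60. At the low end were the integrin Itgax (CD11c) at 0.0948, Spp1 (osteopontin) at 0.0761, the lipid receptor Trem2 at 0.0256 and the scavenger receptor Marco at 0.0205. In this order Tyrobp, Cd163, Mertk and Lyve1 are close to each other, and their rank depends on the temperature of the group.

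The 3 genes below the filter were seen in few reads. Marco had 9 reads over the 5 KO_cold libraries and 10 over KO_RT, against 7 over WT_cold and 2 over WT_RT. Trem2 had 23 and 29 reads in KO_cold and KO_RT, against 19 and 22 in WT_cold and WT_RT. Spp1 had 20 and 33 reads in KO_cold and KO_RT, against 14 and 21 in WT_cold and WT_RT. Marco marks macrophages of body cavities and lymphoid organs, and Trem2 and Spp1 mark lipid-laden macrophages of obese fat. None of the 3 was tested.

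**Figure D1:**
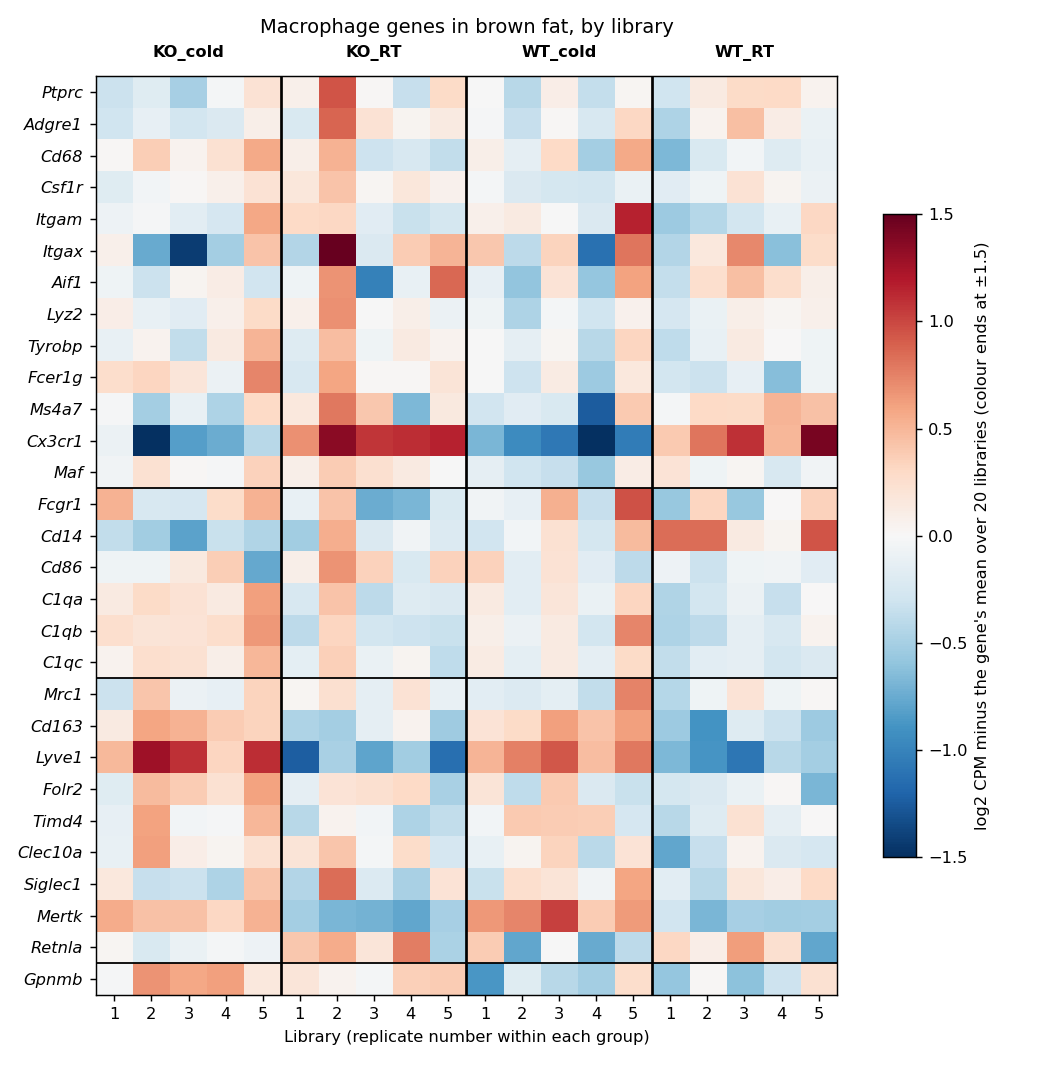
Log2 CPM of the 29 tested genes (rows, by role group) in the 20 libraries (columns, by group and replicate number), each minus the gene's mean over all libraries. Mertk, Lyve1 and Cd163 are high in all cold libraries and Cx3cr1 is low, while KO_RT replicate 2 and WT_cold replicate 5 are high across many genes.

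The first question was whether 4 h of cold changed the macrophage genes. In KO mice, Mertk, Lyve1, Cd163, C1qa and C1qb rose and Cx3cr1 fell, and the other 23 of the 29 tested genes did not pass (edgeR quasi-likelihood test, adjusted p under 0.05 over all 15233 genes). In WT mice, Mertk, Lyve1, Cd163 and C1qc rose and Cx3cr1 and Cd14 fell. That is 20.7% of the tested members in each genotype. Of all genes, 59.2% were called for cold in KO (27.5% higher and 31.7% lower) and 56.4% in WT (26.2% higher and 30.2% lower). Among the 4389 genes that lie within the members' interquartile range of levels the shares were 61.2% in KO and 58.8% in WT. At an unadjusted p under 0.05 there were 12 members in KO, beside 62.8% of all genes, and 8 in WT, beside 60.5%. The members' share lies under these in the fit of all libraries, and that difference was not itself tested. The median log2 change of the 29 was 0.0147 in KO, beside -0.0475 over all genes, and 0.128 in WT, beside -0.0527.

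Mertk, a receptor tyrosine kinase through which macrophages engulf dying cells, had the smallest adjusted p of the set in both genotypes. It lies at chr2:128698956-128802894 (+; GENCODE M21, GRCm38) with 19 exon blocks. Its level was 19.7, 18.04, 18.1, 16.5 and 19.1 CPM in the KO_cold libraries, against 9.33, 8.32, 8.12, 7.74 and 9.47 CPM in KO_RT. The WT_cold libraries had 20.8, 22.1, 27.2, 17.4 and 20.7 CPM, against 10.9, 8.27, 9.42, 9.31 and 9.37 CPM in WT_RT. Every cold library exceeded every RT library of its genotype. The log2 change was 1.09 ± 0.0993 in KO (SE; 2.13-fold, adjusted p = 8.01e-09) and 1.19 ± 0.0979 in WT (2.29-fold, adjusted p = 2.2e-09). The interaction of -0.10 ± 0.138 (95% interval -0.392 to 0.183) did not pass, with an adjusted p of 0.877.

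Lyve1, a hyaluronan receptor of perivascular resident macrophages and of lymphatic endothelium, had the largest rise. It lies at chr7:110850607-110863239 (−). The KO_cold libraries had 11.4, 19.6, 17.4, 10.2 and 17.5 CPM, against 3.44, 5.78, 4.71, 5.68 and 3.71 CPM in KO_RT. Levels were 11.5, 13.7, 15.5, 11.2 and 14.1 CPM in WT_cold, against 5.10, 4.39, 3.83, 6.09 and 5.71 CPM in WT_RT. No cold library of either genotype was as low as any RT library. Cold changed Lyve1 by a log2 value of 1.70 ± 0.189 in KO (3.26-fold, adjusted p = 2.02e-07) and 1.39 ± 0.185 in WT (2.63-fold, adjusted p = 2.4e-06). The difference between the genotypes, 0.31 ± 0.261 (95% interval -0.235 to 0.856), did not pass (adjusted p = 0.766).

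Among the markers of lymphatic endothelium, Flt4 alone was called for a rise in the cold. The sum of the markers was 17.9 to 28.04 CPM in KO_cold and 14.0 to 15.3 in KO_RT, and 20.6 to 23.4 in WT_cold and 14.3 to 19.9 in WT_RT. Of the 5 tested of 6, 1 rose in each genotype, where 27.5% of all genes rose in KO and 26.2% in WT. The median log2 change of the markers was 0.167 in KO and 0.00509 in WT, and the chemokine Ccl21a was at 0 in all groups. The marker that rose was Flt4, the receptor for VEGF-C, which made up most of the sum. Flt4 averaged 18.4 ± 2.77 CPM in KO_cold and 9.71 ± 0.698 in KO_RT (log2 change 0.92 ± 0.113, adjusted p = 4.36e-07), and 17.1 ± 2.85 in WT_cold and 11.1 ± 0.930 in WT_RT (0.63 ± 0.111, adjusted p = 5.22e-05). Prox1, the transcription factor that defines lymphatic endothelium, stayed under 1 CPM in all groups, with a log2 change of -0.70 in WT that did not pass (adjusted p = 0.0722), except without WT_RT replicate 5 (0.0297). In KO, Prox1 averaged 0.335 CPM in KO_cold and 0.289 in KO_RT. Pdpn, another of the markers, did not pass in either genotype. It was called lower in the cold in WT without WT_cold replicate 5 (log2 change -0.65, adjusted p = 0.00695). The same held without both WT libraries near the other temperature (-0.54, adjusted p = 0.023). The part of lymphatic vessels in the rise of Lyve1 was not tested.

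Cd163, the macrophage receptor that takes up haemoglobin bound to haptoglobin, rose in both genotypes. It lies at chr6:124304656-124330527 (+). The KO_cold libraries had 20.6, 28.3, 27.0, 24.4 and 23.6 CPM, against 13.6, 13.2, 17.03, 19.5 and 12.98 CPM in KO_RT. The WT_cold libraries had 21.7, 22.9, 28.7, 25.2 and 28.6 CPM, against 12.8, 10.1, 16.4, 14.99 and 12.9 CPM in WT_RT. The groups did not overlap in either genotype, though KO_RT replicate 4 came close to KO_cold replicate 1. For Cd163 the log2 change was 0.70 ± 0.133 in KO (1.63-fold, adjusted p = 0.000119) and 0.92 ± 0.132 in WT (1.89-fold, adjusted p = 5.32e-06). The interaction was -0.22 ± 0.186 (95% interval -0.606 to 0.170, adjusted p = 0.772).

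The other tested genes of the resident group did not pass in either genotype. Mrc1, a mannose receptor of resident macrophages, averaged 17.5 ± 3.89 CPM in KO_cold and 17.3 ± 2.12 in KO_RT, and 17.04 ± 6.13 in WT_cold and 16.1 ± 2.48 in WT_RT. Its log2 change for cold was 0.01 (95% interval -0.383 to 0.412) in KO and 0.09 (-0.306 to 0.482) in WT, intervals that leave out the changes estimated for Mertk, Lyve1 and Cd163. Folr2, a folate receptor of resident macrophages, had log2 changes of 0.27 and 0.19 in KO and WT, and Timd4, a phosphatidylserine receptor of long-lived macrophages, 0.44 and 0.28. Timd4 passed in KO with counts of both strands (adjusted p = 0.0412), without both WT libraries near the other temperature (0.0472) and in 5 fits without 1 library (0.0304 to 0.0474). Clec10a, a galactose-type lectin with the close relative Mgl2, had 0.05 and 0.32, and the sialoadhesin Siglec1 -0.14 and 0.14. Retnla had -0.42 and -0.41 and ranged widely, between 6.50 and 15.3 CPM in KO_RT and between 5.28 and 14.0 CPM in WT_RT. The sum of all 10 resident genes was 95.1 ± 10.97 CPM in KO_cold and 67.0 ± 8.38 in KO_RT, and 94.5 ± 12.4 in WT_cold and 62.3 ± 6.78 in WT_RT.

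**Figure D2:**
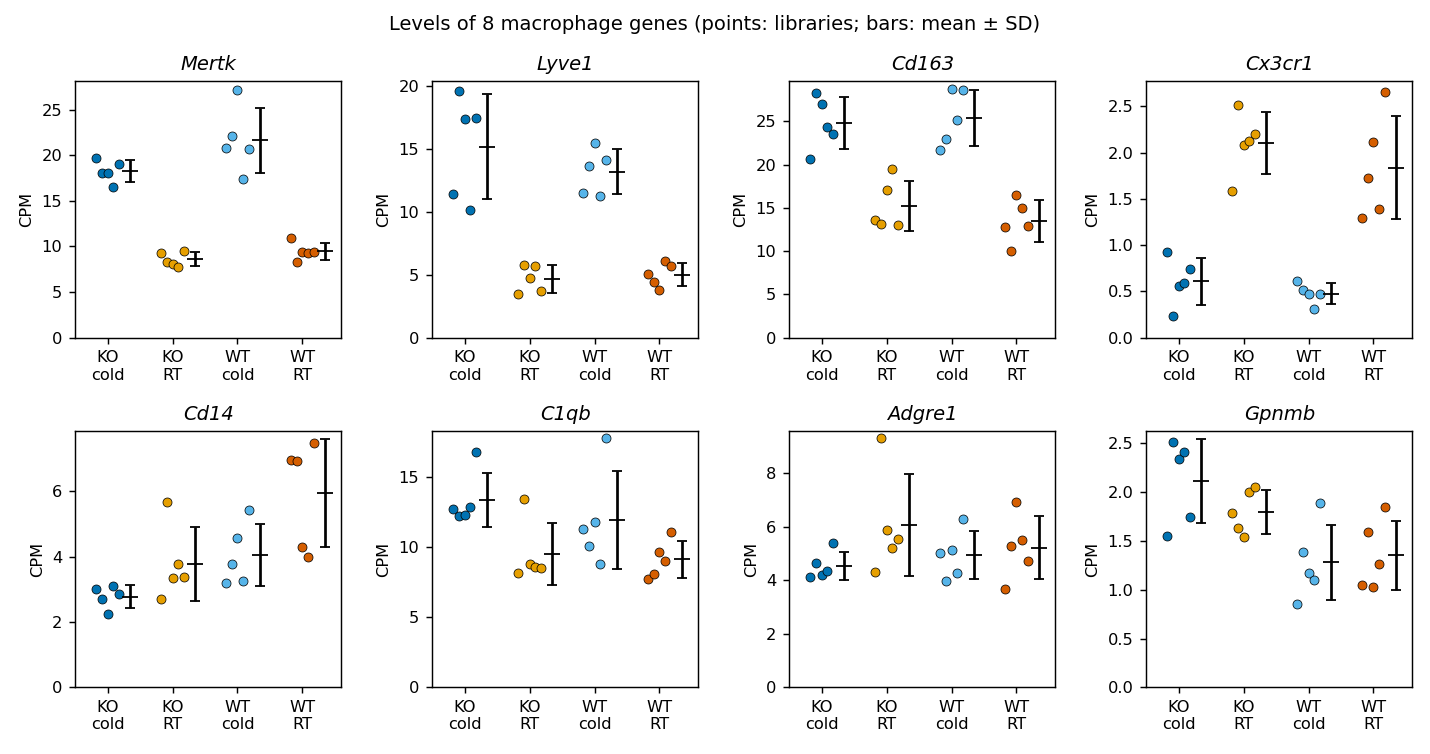
CPM of 8 macrophage genes by group, with a point for each library and bars for the mean ± SD (n = 5). Mertk, Lyve1 and Cd163 lie higher and Cx3cr1 lower in cold libraries of both genotypes without overlap, whereas the Adgre1 libraries overlap between all groups.

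Among the 13 lineage and adaptor genes, only Cx3cr1 passed in either genotype. Cx3cr1 is the receptor for fractalkine, carried by patrolling monocytes, some tissue macrophages and cytotoxic lymphocytes. It lies at chr9:119901616-120069879 (−). The KO_cold libraries had 0.925, 0.235, 0.558, 0.588 and 0.741 CPM, against 1.59, 2.51, 2.08, 2.12 and 2.197 CPM in KO_RT. The WT_cold libraries had 0.613, 0.512, 0.470, 0.306 and 0.477 CPM, against 1.29, 1.73, 2.11, 1.39 and 2.65 CPM in WT_RT. The cold libraries lay under every RT library in both genotypes. The log2 change was -1.75 ± 0.26 in KO (adjusted p = 5.35e-06) and -1.92 ± 0.259 in WT (adjusted p = 1.77e-06), and the interaction was 0.17 ± 0.364 (95% interval -0.587 to 0.923, adjusted p = 0.937). The counts behind these values are small, 96 reads over KO_cold and 364 over KO_RT, and 101 over WT_cold and 360 over WT_RT.

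Several lymphocyte markers fell in the cold. The sum of the markers was 4.86 to 6.88 CPM in KO_cold and 8.56 to 21.8 in KO_RT, and 3.74 to 9.63 in WT_cold and 8.64 to 11.2 in WT_RT. Of 11 tested of 13 markers, 5 fell in KO and 6 in WT, none rose, and none was at 0 over a whole group. Of all genes, 31.7% fell in KO and 30.2% in WT. The part of lymphocytes in the fall of Cx3cr1 was not tested.

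The genes most used to count macrophages did not pass for cold. Adgre1 had 4.12, 4.67, 4.20, 4.36 and 5.40 CPM in KO_cold, against 4.32, 9.31, 5.87, 5.22 and 5.55 CPM in KO_RT, where replicate 2 stood apart. The WT_cold libraries had 5.01, 3.98, 5.14, 4.28 and 6.30 CPM of Adgre1, against 3.69, 5.28, 6.94, 5.49 and 4.72 CPM in WT_RT. These ranges overlap, and the log2 change was -0.41 in KO (95% interval -0.792 to -0.0321, adjusted p = 0.0578) and -0.08 in WT (-0.453 to 0.297, adjusted p = 0.736). With the muscle markers as a term, Adgre1 passed in KO at -0.70 (adjusted p = 0.0291). This term overlaps with temperature: in the cold 13 of 15 muscle markers were lower in KO and 15 of 15 in WT. It cannot fully separate muscle from cold. Csf1r, the growth factor receptor, averaged 13.6 ± 1.40 CPM in KO_cold and 15.2 ± 1.68 in KO_RT, and 11.9 ± 0.882 in WT_cold and 13.3 ± 1.38 in WT_RT. It overlaps Hmgxb3 on the other strand, and 69.5% of its stranded reads lay on its own strand. The lysosomal protein Cd68 had log2 changes of 0.28 and 0.35 in KO and WT, and Lyz2 of -0.14 and -0.12. The pan-leukocyte phosphatase Ptprc (CD45) had -0.40 and -0.23, with adjusted p of 0.0769 and 0.328. Ptprc also passed in KO with the muscle markers as a term (-0.70, adjusted p = 0.0318).

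The remaining lineage genes gave small or uncertain changes. The adaptors Tyrobp and Fcer1g, which couple receptors to the kinase SYK, had log2 changes of -0.02 and 0.16 in KO and of 0.05 and 0.18 in WT. The calcium-binding protein Aif1 (IBA1) had -0.31 in KO and -0.18 in WT, and the transcription factor Maf, which drives resident macrophage genes, -0.06 and -0.21. The membrane protein Ms4a7 had -0.36 and -0.51 in KO and WT. Itgam (CD11b) had 0.05 in KO and 0.50 in WT, where WT_cold replicate 5 had 2.31 CPM and the other 4 had 0.887 to 1.14. Without that library its log2 change in WT was 0.21 (adjusted p = 0.417). Its exons overlap those of the predicted gene Gm49368 on the same strand. Itgax had -0.94 in KO (95% interval -1.86 to -0.0251) and 0.06 in WT, from 51 to 112 reads over a group. The 13 genes summed to 93.0 ± 10.98 CPM in KO_cold and 104 ± 21.4 in KO_RT, and to 82.7 ± 12.0 in WT_cold and 90.5 ± 7.88 in WT_RT.

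Of the 6 immune recognition genes, the chains of C1q had log2 changes above 0 for cold in both genotypes. C1qa, C1qb and C1qc encode the 3 chains of the complement starter C1q, which macrophages secrete, and lie side by side on chromosome 4 between 136880129 and 136898803. C1qb had 12.8, 12.3, 12.3, 12.9 and 16.8 CPM in KO_cold, against 8.16, 13.4, 8.84, 8.62 and 8.52 CPM in KO_RT. In WT_cold it had 11.3, 10.1, 11.8, 8.81 and 17.8 CPM, against 7.74, 8.13, 9.71, 9.05 and 11.1 CPM in WT_RT. The groups overlap in both genotypes, through KO_RT replicate 2 in KO. The log2 change of C1qb was 0.50 ± 0.170 in KO (adjusted p = 0.0166) and 0.39 ± 0.169 in WT (adjusted p = 0.0563). C1qa gave 0.38 ± 0.138 in KO (adjusted p = 0.0224) and 0.31 ± 0.138 in WT (adjusted p = 0.0604), and C1qc 0.26 ± 0.116 in KO (adjusted p = 0.0612) and 0.29 ± 0.116 in WT (adjusted p = 0.0369).

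The C1q calls lie near the threshold. With the skeletal muscle markers as a term, none of the 3 passed. Adjusted p was 0.305 for C1qa and 0.347 for C1qb in KO, where C1qb changed by 0.30, and 0.084 for C1qc in WT. The muscle markers fell with cold themselves, so their term takes up part of the difference between temperatures. Without KO_RT replicate 2 the change of C1qa in KO was 0.58 (adjusted p = 0.000283), and without KO_cold replicate 5 its adjusted p was 0.0608. C1qc in WT did not pass without WT_cold replicate 3, WT_cold replicate 5 or WT_RT replicate 1 (adjusted p 0.0507, 0.0743 and 0.0887), nor without both WT libraries near the other temperature (0.112). C1qa and C1qb passed in WT with relative log expression scaling (0.0398 and 0.0393) and with DESeq2 (0.033 and 0.0261), and among other alternatives with counts of both strands (0.0385 and 0.0394). C1qc passed in KO with relative log expression scaling (0.0371), with DESeq2 (0.0342), without both WT libraries near the other temperature (0.0365), and without KO_cold replicate 1 or 4 or KO_RT replicate 2 or 4 (0.0034 to 0.0492).

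Cd14, the co-receptor of the endotoxin receptor TLR4, was lower in the cold. It lies at chr18:36725067-36726798 (−). The KO_cold libraries had 3.01, 2.71, 2.23, 3.09 and 2.85 CPM, against 2.71, 5.67, 3.34, 3.76 and 3.38 CPM in KO_RT. The WT_cold libraries had 3.20, 3.77, 4.56, 3.24 and 5.41 CPM, against 6.96, 6.94, 4.28, 4.00 and 7.48 CPM in WT_RT. The groups overlap, and in WT_RT 3 libraries are high and 2 low. The log2 change was -0.44 ± 0.21 in KO (adjusted p = 0.0776) and -0.56 ± 0.201 in WT (adjusted p = 0.0223). In WT it did not pass with the muscle markers as a term (adjusted p = 0.223) or without any one of WT_cold replicates 1, 2 and 4 or WT_RT replicates 1, 2 and 5 (adjusted p 0.0573 to 0.0865). The Fc receptor Fcgr1 (CD64) had log2 changes of 0.41 in KO and 0.31 in WT, and the costimulatory ligand Cd86 -0.31 and 0.13, none of which passed.

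Libraries without overlap give the same picture by another count. Cold and RT libraries were apart, with cold higher, for 3 members in each genotype (Mertk, Lyve1 and Cd163), where 21.6% of all tested genes were in KO and 18.9% in WT. They were apart with cold lower for 1 member (Cx3cr1), where 23.2% of all tested genes were in KO and 19.3% in WT.

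**Figure D3:**
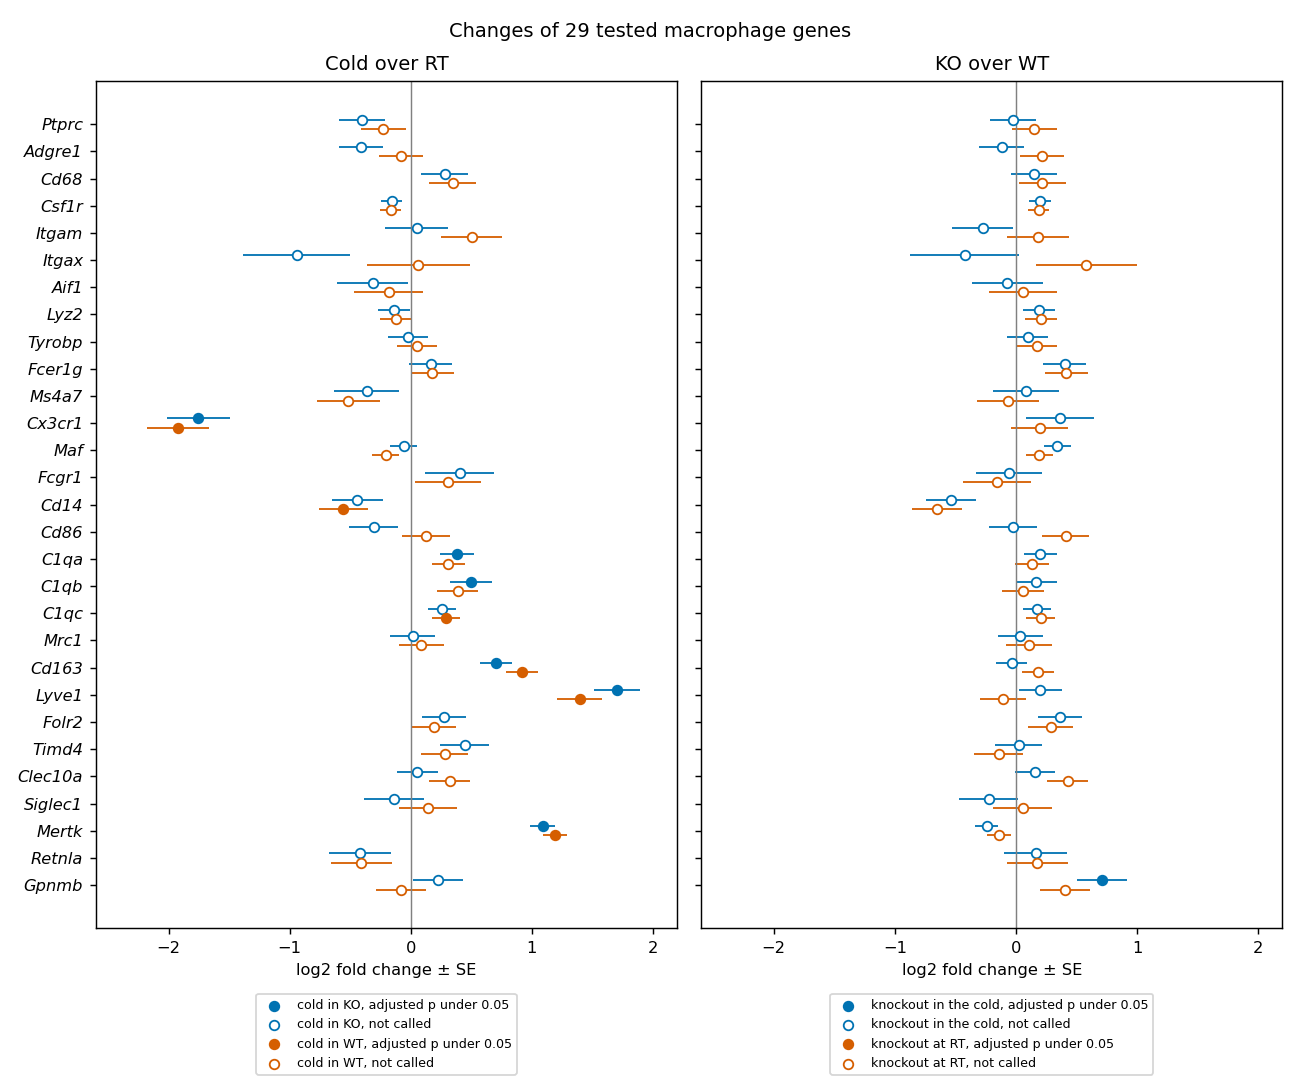
Log2 fold change ± SE of the 29 tested genes for cold over RT (left) and KO over WT (right), filled where adjusted p was under 0.05. Mertk, Lyve1, Cd163 and Cx3cr1 are filled in both genotypes for cold, and Gpnmb in the cold is the sole filled point for the knockout.

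The second question was whether loss of C/EBP beta in adipose cells changed the macrophage genes. At RT, 0 of the 29 passed in the edgeR quasi-likelihood test, 5 had an unadjusted p under 0.05 (Cd14, Clec10a, Fcer1g, Csf1r and Cd86), and the DESeq2 Wald test called 1 (Cd14). Of all genes, 2.7% were called for the knockout at RT (1.38% higher and 1.32% lower in KO, and 3.03% within the members' interquartile range of levels), and 13.9% had an unadjusted p under 0.05. In the cold, 1 of the 29 passed (Gpnmb, higher in KO), beside 7.7% of all genes (3.51% higher, 4.19% lower, and 6.72% within the members' interquartile range), and 6 had an unadjusted p under 0.05, beside 20% of all genes. The median log2 change of the members was 0.179 at RT and 0.0958 in the cold, beside -0.00479 and 0.00209 over all genes. At RT 23 of the 29 were above 0, beside 7399 of all 15233 genes. Other cells' markers above 0 at RT were 10 of 10 for fibroblasts, 9 of 11 for lymphocytes and 5 of 7 each for mast and dendritic cells. Further lists had 3 of 6 for erythrocytes, 2 of 5 for lymphatic endothelium, 2 of 10 for adipocytes and 1 of 10 for endothelium. Muscle had 0 of 15 and neutrophils 0 of 3. Of the fibroblast markers, 2 were called higher in KO at RT and 4 in the cold. KO_RT replicate 2 alone had the highest value of its group for 23 of the 29 members.

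Gpnmb, a glycoprotein of lysosome-rich and lipid-laden macrophages, was the member that rose. It lies at chr6:49036546-49070929 (+). The KO_cold libraries had 1.55, 2.51, 2.34, 2.41 and 1.75 CPM, against 0.854, 1.38, 1.18, 1.10 and 1.88 CPM in WT_cold. The KO_RT libraries had 1.78, 1.63, 1.54, 2.003 and 2.05 CPM, against 1.05, 1.59, 1.03, 1.26 and 1.84 CPM in WT_RT. WT replicate 5 overlaps the KO libraries at both temperatures. The log2 change was 0.71 ± 0.207 in the cold (1.64-fold, 95% interval 0.284 to 1.14, adjusted p = 0.0354) and 0.41 ± 0.206 at RT (adjusted p = 0.392), with an interaction of 0.31 ± 0.292 that did not pass (adjusted p = 0.805). The call in the cold ended in a fit of only the 2 groups (adjusted p = 0.0714), with the muscle markers as a term (0.0559), and without any one of KO_cold replicates 2, 3 and 4 or WT_cold replicates 1, 2, 3 and 4 (0.0526 to 0.0938). The other lipid-associated genes, Trem2 and Spp1, were too low to test.

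Cd14 was the member with the lowest log2 change for the knockout at both temperatures, without passing at either. In the cold its 5 KO libraries (2.23 to 3.09 CPM) all lay under its 5 WT libraries (3.20 to 5.41 CPM), the sole member of 29 with no overlap, where 3.74% of all tested genes were apart in that direction and 3.26% in the other. The log2 change was -0.54 ± 0.209 in the cold (adjusted p = 0.136) and -0.65 ± 0.202 at RT (adjusted p = 0.0976). At RT it passed with DESeq2 (adjusted p = 0.0381), without both WT libraries near the other temperature (0.0274), without KO_RT replicate 2 (-0.85, adjusted p = 0.0226) and without WT_RT replicate 4 (0.0456). No member was without overlap at RT, beside 2.44% of all genes apart with KO higher and 2.54% with KO lower.

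Several members lay a little higher in KO without passing. Maf had a log2 change of 0.34 ± 0.113 in the cold (95% interval 0.106 to 0.576, adjusted p = 0.0716), with 12.9 ± 1.59 CPM in KO_cold and 10.1 ± 1.82 in WT_cold. Maf passed without WT_cold replicate 5 (0.44, adjusted p = 0.0126) and without both WT libraries near the other temperature (0.44, adjusted p = 0.01). Fcer1g had 0.40 in the cold and 0.42 at RT, Csf1r 0.20 and 0.19, and Folr2 0.37 and 0.29. Mertk was lower in KO in the cold, -0.24 ± 0.0959 (adjusted p = 0.145), a value that passed only without WT_cold replicate 4 (-0.31, adjusted p = 0.0415). For Adgre1 the change was -0.12 in the cold (95% interval -0.5 to 0.261) and 0.21 at RT (-0.159 to 0.589), so a change of 2-fold lies outside both intervals.

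The response to cold was compared between genotypes by the interaction. Of the 29 members 0 passed in edgeR, 0 had an unadjusted p under 0.05 and 0 passed with DESeq2, beside 0.742% of all genes in edgeR (0.427% higher, 0.315% lower, and 0.57% within the members' interquartile range of levels) and 10.1% at an unadjusted p under 0.05. The median interaction of the members was -0.017. Itgax had the largest estimate at -1.004 ± 0.613 (95% interval -2.28 to 0.268, adjusted p = 0.625), on few reads.

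Much of the variation among these genes was between libraries of 1 group. In KO_RT replicate 2, 23 of the 29 members had the highest value of the group, beside 20.2% of all genes. WT_cold replicate 5 was highest for 18 members (28.1% of all genes), KO_cold replicate 5 for 16 (21.5%) and WT_RT replicate 3 for 13 (17%). WT_RT replicate 1 was lowest for 16 members and WT_cold replicate 4 for 15. The share of all genes that were lowest in these libraries was not computed, so these counts have no background beside them. On average the members lay 0.416 log2 units above the group mean in KO_RT replicate 2, 0.299 above in WT_cold replicate 5 and 0.318 below in WT_cold replicate 4 (a mean deviation of -0.318). The sum of all 32 genes was 270 CPM in KO_RT replicate 2 and 184 to 212 in the other KO_RT libraries, which also had fewer lymphocyte transcripts than the 21.8 CPM of replicate 2. Markers of erythrocytes reached 1166 CPM in WT_cold replicate 5, against a WT_cold median of 312.

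Without KO_RT replicate 2, 8 of the 29 members rose in KO in the cold (C1qc, Cd68 and Timd4 joining the 5), beside 27.6% of all genes in that fit. Without WT_cold replicate 4, 9 rose in WT (C1qa, C1qb, Cd68, Clec10a and Itgam joining the 4), beside 26.7% of all genes. In both fits the members' share of rises is no lower than that of all genes, but their share of falls is. Cx3cr1 was the only member that fell in either fit. Of all genes, 28% fell in KO without KO_RT replicate 2 and 27.1% in WT without WT_cold replicate 4. Without WT_RT replicate 5, 7 rose in WT, with C1qa, C1qb and Itgam added, beside 26.9% of all genes. Members that fell in KO numbered 4 without KO_RT replicate 1 (Adgre1, Cd14, Cx3cr1 and Itgax), beside 29% of all genes. They numbered 3 without KO_cold replicate 5 (Cx3cr1, Itgax and Ptprc), beside 28.8%, and 2 without KO_RT replicate 4 (Cx3cr1 and Ptprc), beside 28.3%. In WT they numbered 4 without WT_cold replicate 5, where Ms4a7 and Maf joined Cx3cr1 and Cd14, beside 29% of all genes. The calls of Mertk, Lyve1, Cd163 and Cx3cr1 for cold held in both genotypes without any single library and in the other alternatives run.

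Related genes were read from lists kept apart from the 32. Beside the counts of each list stand the shares of all genes. For cold, 27.5% rose and 31.7% fell in KO, and 26.2% rose and 30.2% fell in WT. For the knockout, 7.7% were called in the cold and 2.7% at RT, and for the interaction 0.742%. Of 19 further macrophage-lineage genes, all tested, 3 fell in the cold in KO and 2 in WT in edgeR, and 0 rose (4 and 2 genes had an unadjusted p under 0.05). DESeq2 gave the same counts but not all the same genes, since Sirpa did not pass there for cold in KO (adjusted p = 0.0655). Cybb, a subunit of the phagocyte NADPH oxidase, fell in the cold. It averaged 3.05 ± 0.379 CPM in KO_cold and 6.88 ± 2.60 in KO_RT (log2 change -1.18 ± 0.188, adjusted p = 1.38e-05), and 2.94 ± 0.546 in WT_cold and 5.34 ± 0.683 in WT_RT (-0.86 ± 0.185, adjusted p = 0.000425). Its groups did not overlap in either genotype. Sirpa, the receptor for the signal CD47, was lower in KO. It had 9.26 ± 1.65 CPM in KO_cold and 14.96 ± 2.01 in WT_cold (-0.69 ± 0.112, adjusted p = 0.000274), and 11.2 ± 1.21 in KO_RT and 14.9 ± 0.971 in WT_RT (-0.41 ± 0.11, adjusted p = 0.0464). The call at RT ended in each of the 10 fits without 1 of the compared libraries (adjusted p 0.051 to 0.134), with the muscle markers as a term (0.0644) and with counts of both strands (0.0504). Sirpa also fell with cold in KO (-0.27, adjusted p = 0.0414), a call that ended in 14 alternatives (0.0568 to 0.194).

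Of 17 tested of 18 further resident macrophage genes, 6 rose and 3 fell in the cold in KO, and 3 rose and 3 fell in WT. The iron exporter Slc40a1 (ferroportin) averaged 14.7 ± 4.56 CPM in KO_cold and 42.1 ± 12.8 in KO_RT (log2 change -1.52, adjusted p = 6.92e-06), and 20.5 ± 3.89 in WT_cold and 57.6 ± 6.29 in WT_RT (-1.49, adjusted p = 7.66e-06). Ednrb, a receptor for endothelins found on several cell types, had 66.0 ± 6.76 CPM in KO_cold and 28.3 ± 5.81 in KO_RT (1.22, adjusted p = 1.21e-06), and 59.5 ± 9.21 in WT_cold and 31.6 ± 7.17 in WT_RT (0.91, adjusted p = 3.66e-05). Neither gene is particular to macrophages.

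Monocyte genes moved both ways: of 5 tested of 9, 2 rose and 1 fell in the cold in KO, and 2 rose in WT. Ms4a6c, a membrane protein of monocytes, averaged 6.03 ± 1.03 CPM in KO_cold and 2.88 ± 0.557 in KO_RT (log2 change 1.06, adjusted p = 0.000226), and 5.74 ± 1.53 in WT_cold and 2.63 ± 0.836 in WT_RT (1.13, adjusted p = 0.000119). Ccr2, the chemokine receptor of classical monocytes, fell in KO to 4.58 ± 0.873 CPM in KO_cold, against 7.32 ± 3.004 in KO_RT (log2 change -0.68, adjusted p = 0.0222), with overlap. Without KO_RT replicate 2 the log2 change of Ccr2 was -0.38 (adjusted p = 0.132), and its call also ended without KO_cold replicate 2, 3 or 4 or KO_RT replicate 1 (0.0504 to 0.0668) and with no expression filter (0.0647).

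Of the growth factors of macrophages, Csf1 was higher in KO than in WT in the cold, and Il34 rose with cold in KO. Csf1 had 12.1, 12.9, 10.4, 8.07 and 12.0 CPM in KO_cold, against 8.28, 7.55, 8.41, 6.37 and 9.42 CPM in WT_cold. At RT it had 7.57, 11.7, 6.76, 9.80 and 8.73 CPM in KO_RT, against 7.96, 7.80, 6.91, 7.76 and 7.60 CPM in WT_RT. In the cold the KO libraries of Csf1 were higher, with overlap through KO_cold replicate 4, at a log2 change of 0.47 ± 0.136 (1.39-fold, adjusted p = 0.0354). That call ended in a fit of the compared groups only (adjusted p = 0.0506), with the muscle markers as a term (0.0528) and in 7 fits without 1 library (0.0517 to 0.103). Its log2 change for cold was 0.32 in KO (adjusted p = 0.0514) and 0.07 in WT (adjusted p = 0.668). For Csf1 the change in KO passed in 9 alternatives (adjusted p 0.00526 to 0.0465), among them relative log expression scaling (0.0335), DESeq2 (0.0271) and the fit without KO_RT replicate 2 (0.00526). Il34, the other ligand of CSF1R, rose in the cold in KO to 3.31 ± 0.406 CPM in KO_cold, against 2.49 ± 0.625 in KO_RT (log2 change 0.42 ± 0.144, adjusted p = 0.0161), a call that ended with counts of both strands (adjusted p = 0.0746). Csf2 had 1 read over KO_cold and 0 over KO_RT, against 0 over WT_cold and 5 over WT_RT.

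**Figure D4:**
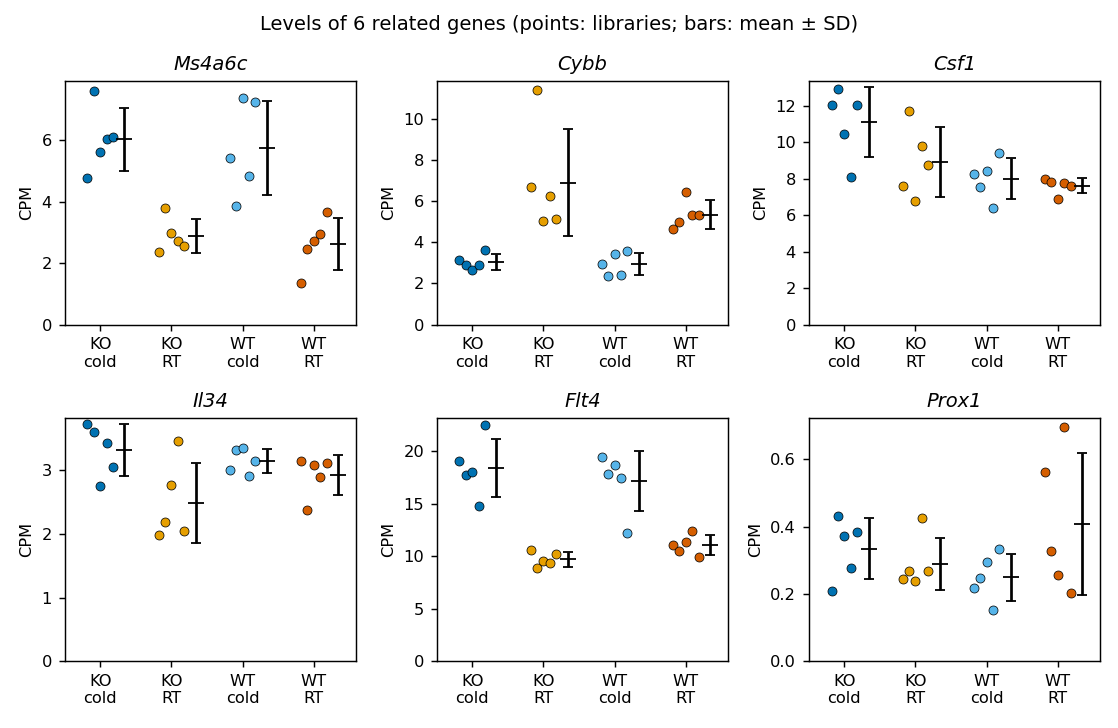
CPM of 6 related genes by group, with a point for each library and bars for the mean ± SD (n = 5). Ms4a6c lies higher in cold than in RT libraries and Cybb lower, in both genotypes, Flt4 has a higher mean in the cold, while Csf1 is higher in KO_cold than in WT_cold and Il34 higher in KO_cold than in KO_RT, both with overlap, and Prox1 stays under 1 CPM.

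Of 7 tested of 9 growth factors and cytokine receptors, 2 rose and 2 fell in the cold in each genotype. Il4ra and Il34 rose in KO, Il4ra and Csf2ra rose in WT, and Tgfbr2 and Csf2rb fell in both. Il4ra, a receptor chain for the type 2 cytokines IL-4 and IL-13, had 24.6 ± 2.32 CPM in KO_cold and 11.5 ± 1.40 in KO_RT (log2 change 1.09, adjusted p = 7.42e-09), and 25.4 ± 2.54 in WT_cold and 12.4 ± 1.60 in WT_RT (1.04, adjusted p = 1.29e-08). The TGF-beta receptor Tgfbr2 fell, by 1.16 in KO (adjusted p = 4.71e-08) and by 0.72 in WT (adjusted p = 2.02e-05) on the log2 scale.

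Genes of activation showed no common direction. Of 11 tested of 15 inflammatory genes, 2 rose and 2 fell in the cold in KO, and 1 rose and 2 fell in WT, and of 6 tested of 10 genes of alternative activation, 2 rose and 2 fell in KO and 2 rose in WT. Il1rn, the antagonist of the interleukin 1 receptor, was the one inflammatory gene called for the knockout in the edgeR fit of all libraries. It had 4.03, 5.37, 3.79, 5.78 and 2.64 CPM in KO_cold, against 0.723, 0.872, 0.823, 1.04 and 0.620 CPM in WT_cold. At RT it had 14.0, 7.73, 8.396, 6.65 and 8.08 CPM in KO_RT, against 3.76, 1.31, 1.60, 2.48 and 1.92 CPM in WT_RT. The KO libraries lay above all WT libraries at both temperatures, with log2 changes of 2.41 ± 0.29 in the cold (adjusted p = 1.4e-05) and 2.02 ± 0.264 at RT (adjusted p = 9.77e-05). Il1rn fell in the cold in both genotypes, by 1.06 in KO (adjusted p = 0.00135) and by 1.45 in WT (adjusted p = 0.000286) on the log2 scale. The call in KO ended with the muscle markers as a term (adjusted p = 0.0557). Nfkbia, also on the inflammatory list, was called lower in KO in the cold in some alternatives. It passed with DESeq2 (log2 change -0.29, adjusted p = 0.0359) and with no expression filter (0.0275). The same held without KO_cold replicate 1 (0.0166) and without WT_cold replicate 1 or 2 (0.0399 and 0.0445).

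Of 12 tested of 14 genes linked to lipid-associated macrophages, 6 rose and 3 fell in the cold in each genotype, and 3 were lower in KO at each temperature. For all genes the shares called were 59.2% in KO and 56.4% in WT for cold, and 7.7% in the cold and 2.7% at RT for the knockout. The adipocytes of the tissue also make many of them. Lpl, the lipase that frees fatty acids from lipoproteins and is made mainly by adipocytes in fat, rose in the cold by 1.32 in KO (adjusted p = 1.37e-09) and by 0.85 in WT (adjusted p = 5.21e-07) on the log2 scale, at group means between 4452 and 12545 CPM. The lysosomal lipase Lipa fell by 0.75 in KO (adjusted p = 7.35e-07) and by 0.58 in WT (adjusted p = 2.08e-05). Lpl was also lower in KO at RT, by a log2 change of -0.64 (adjusted p = 0.000806). The others lower at RT were Ctsl, a lysosomal protease (-0.28, adjusted p = 0.0271), and Pla2g7, a secreted phospholipase (-0.38, adjusted p = 0.0304). The call of Ctsl ended in the fit of the compared groups only (0.0679), with the replicate block (0.054) and in 4 fits without 1 library (0.0548 to 0.0801). That of Pla2g7 ended with the replicate block (0.0572) and in 6 fits without 1 library (0.0506 to 0.0947).

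For the knockout, 0 of the resident and monocyte genes on these lists passed at either temperature in edgeR (3 and 1 had an unadjusted p under 0.05 at RT, and 5 and 1 in the cold), and DESeq2 called 0 at RT and 1 of each list in the cold. Among the genes of alternative activation, Socs2, which curbs cytokine signals through STAT factors, was lower in KO in the cold (log2 change -1.48, adjusted p = 0.000941) and at RT (-1.17, adjusted p = 0.0276). The call of Socs2 at RT ended with no expression filter (0.0648), without any one of the KO_RT libraries (0.051 to 0.0764) and without WT_RT replicate 2, 3 or 5 (0.0512 to 0.0856). Pparg, the nuclear receptor that adipocytes and macrophages both use, was lower in KO in the cold (-0.47, adjusted p = 0.000411). The interaction passed for 0 genes of the 7 lists in edgeR, 7 had an unadjusted p under 0.05, and DESeq2 called 1 (Pparg).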

How the data were processed

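RNA of brown adipose tissue was extracted with a PureLink kit and made into stranded mRNA libraries with a KAPA kit, per the labels' protocols. The submitters' processing notes name Trim Galore 0.6.0, STAR 2.7.8a and GRCm38.p6, and the annotation release is not given in the sources used here. The authors deposited 1 table of raw counts per library, with columns for both strands and for each strand. The column of the reverse strand was used, which held 94.5% to 95.7% of the reads counted on either strand. The 4 entries that name no gene were left out of library sizes: reads mapped to several places (18.3% to 21.4% of all reads of a table), unmapped (3.86% to 5.66%), in no gene (3.14% to 4.55%) and in more than 1 gene (1.02% to 1.16%). Mitochondrially encoded genes took 28.8% to 36.0% of the counts. Libraries of a group differed by 15.2 to 107.7 times counting error (chi-square per degree of freedom), so none was a duplicate.

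IDs were given symbols from the reference tables (55144 of 55471), and exon lengths came from GENCODE M21. Counts were tested in R 4.3.3 with edgeR 4.0.16: filterByExpr by group (count minimum 10, total minimum 15), TMM scaling, and 1 quasi-likelihood model (robust) for all 4 groups, which leaves 16 residual degrees of freedom. Benjamini-Hochberg adjustment ran over 15233 genes in each of 5 comparisons, and the threshold was 0.05. Libraries varied within groups by a biological coefficient of variation of 15.3%. CPM uses TMM-scaled library sizes, and log2 values a prior count of 2. The fit was tested on simulated data with 99 or 100 genes changed at each fold. It called 56% to 60% of 1.5-fold changes between 2 groups, and 42% for the interaction. Of 2-fold changes it called 79.8% to 85%, and 69.7% for the interaction. Far more genes were called for cold in the data, so these shares may not hold for cold.

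The members and lists were chosen with earlier results of these data known. All 32 members are named. From each related list and comparison at most the 3 called genes of smallest adjusted p are named, and Csf1, Il34 and Csf2 always. Flt4, Prox1 and Pdpn were named as markers of lymphatic endothelium after their values were seen. Alternatives were relative log expression scaling, no expression filter, DESeq2 1.42.0, a fit of the compared groups only, counts of both strands, a block for the replicate number, the mean of the skeletal muscle markers as a term, leaving out both WT libraries near the other temperature (known from earlier results), and leaving out each library. Results of 2 genes of these lists are not reported here.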

Additional observations from a re-analysis of the deposited data

Results flagged for a closer look

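Of 128 sets of 5 libraries (1 gene in 1 group), 13 had a highest library far from the other 4 by Dixon's test at 95%, which flags about 1 set in 20 by chance. KO_RT replicate 2 stood apart for C1qa (16.3 CPM, next 10.6), C1qb (13.4, next 8.84), Itgax (1.44, next 0.564), Lyz2 (68.4, next 45.3) and Marco (0.214, next 0.0594). KO_cold replicate 5 did so for C1qa (18.6 CPM, next 14.8), C1qb (16.8, next 12.9) and Itgam (1.54, next 1.02). WT_cold replicate 5 did so for Itgam (2.31 CPM, next 1.14) and Mrc1 (27.9, next 15.02). The rest were Marco in KO_cold replicate 4 (0.216 CPM, next 0.0593) and WT_RT replicate 4 (0.0516, next 0), and Spp1 in WT_cold replicate 3 (0.176, next 0.0612), all on a few reads. What sets these libraries apart was not tested.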

How the results depend on the processing

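No result changed direction at a call in any alternative, and the cold calls of Mertk, Lyve1, Cd163 and Cx3cr1 held in both genotypes in all of them. With the muscle markers as a term, 3 members rose and 3 fell in KO in the cold (5 and 1 in the fit of the report). Of all genes, 20.9% rose and 22.3% fell there with that term. In WT 1 member fell (2), beside 24.8% of all genes. For the knockout in the cold 0 members were higher (1), beside 3.23%. A fit of the compared groups only also gave 0 there, beside 3.01%. Without both WT libraries near the other temperature 2 members were higher there, beside 3.08%. In that fit 1 member was lower in KO at RT, beside 1.46% of all genes, as with DESeq2 (1, beside 2.08%). Leaving out 1 library gave 4 to 8 members higher and 1 to 4 lower for cold in KO. Of all genes, 27.6% to 28.3% were higher and 28% to 29% lower in these fits. For cold in WT 3 to 9 were higher and 1 to 4 lower, beside 24.9% to 27.6% and 26.1% to 29%. For the knockout at RT 0 to 1 were lower, beside 0.801% to 1.1%. For the knockout in the cold 0 to 2 were higher and 0 to 1 lower, beside 2.63% to 3.37% and 3.25% to 4.03%. The muscle markers fell with cold in both genotypes, so a fit with their term cannot fully separate muscle from temperature. Over all genes, calls for cold were 6589 in KO with that term, against 9019 without it, and 7295 in WT, against 8594. The causes of these shifts were not tested.

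The labels do not say whether replicate numbers pair the libraries. Deviations of same-numbered libraries correlated at -0.184 to 0.274. Libraries that correlated best with their own number were 0 of 5 for cold in KO and 2 of 5 for cold in WT. They were 1 of 5 for the knockout at RT and 2 of 5 for the knockout in the cold. These values cannot settle whether the numbers pair the libraries. With the replicate block, 5 members rose and 1 fell in KO in the cold, beside 27.3% and 31.5% of all genes. In WT 6 rose and 2 fell, beside 25.8% and 29.9%. For the knockout at RT 0 passed, beside 1.35% of all genes higher and 1.17% lower. For the knockout in the cold 1 was higher, beside 3.22%. Over all genes, calls for the knockout at RT were 411, against 629 with DESeq2, 267 without WT_RT replicate 5 and 269 without KO_RT replicate 4, and for the interaction 113, against 269 with DESeq2 and 74 without both WT libraries. Depth limits Marco, Trem2 and Spp1 most, and then Itgax and Cx3cr1.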
